A study of Mus musculus with 92 samples.

Results

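Fetal intestinal spheroids that carried 2 floxed copies of Eif4g2 were compared after 4-hydroxytamoxifen (4-OHT) and after its solvent DMSO. The comparison takes 12 of the 92 RNA-seq libraries of the study: 6 spheroid lines, each with 1 library per treatment, paired by line. Every line was Eif4g2(flox/flox) with Rosa26(CreER), so the DMSO cultures also carried the floxed alleles and the recombinase. CreER expressed from Rosa26 is not limited to 1 cell type, and 4-OHT activates it to remove the floxed exons. Cultures grew in ENR (EGF, Noggin and R-spondin), received 0.5 µM 4-OHT or DMSO for 24 h and were collected on day 6. Lines 1 and 3 have names with the prefix S9484, lines 2, 4 and 5 have S9488, and line 6 has S9020. The labels do not say what a shared prefix stands for, so these lines may not be independent of each other. A further 10 libraries came from 5 Eif4g2(flox/+) Rosa26(CreER) lines given the same treatments, in which 1 copy can be deleted. A set of adult small intestinal organoids, also Eif4g2(flox/flox) Rosa26(CreER), with 3 DMSO and 3 4-OHT libraries, serves for the comparison with adult epithelium. No spheroid line carried CreER without a floxed allele.

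Eif4g2 encodes DAP5 (eIF4G2), a relative of the scaffold protein eIF4G1 that lacks the part that binds the cap-binding protein eIF4E and that supports translation of a subset of mRNAs. Fetal intestinal spheroids are hollow epithelial cultures of immature progenitors. They express markers such as Gja1 that the adult epithelium largely loses and that injured intestine can switch on again, while adult organoids form crypt buds with Lgr5-positive stem cells and Paneth cells.

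The spheroid label was held against marker genes in CPM, read counts scaled to the library total. The 21 fetal markers summed to 2139 to 7656 CPM with DMSO and to 1056 to 2319 CPM in 4 adult CreER-only organoid libraries given 4-OHT, so the ranges overlapped. With DMSO, Gja1, a gap junction protein of fetal epithelium, ran from 41.6 to 95.1 CPM. In the organoids it had 0 to 0.398 CPM, whereas Clu (153 to 1825 against 159 to 520 CPM) and Spp1 (0.455 to 82.2 against 0 to 0.802 CPM) overlapped. Genes of mature epithelium were also expressed in the DMSO spheroids. Their sums were 1440 to 8467 against 9533 to 11796 CPM for crypt stem and Wnt genes, 218 to 5462 against 7130 to 8370 CPM for Paneth genes and 4147 to 20867 against 19997 to 27354 CPM for enterocyte genes. Goblet genes were higher than in the organoids, at 3241 to 17970 against 2390 to 3005 CPM. All 10 general epithelial genes on the marker list were above 1 CPM in every library. Ptprc, of immune cells, stayed at or below 0.248 CPM in these 12 libraries, Pecam1, of endothelium, at or below 1.08 CPM, and Col1a1, of fibroblasts, at or below 2.44 CPM. The summed level of 12 mesenchymal genes was 1.78 to 8.61 CPM with DMSO and 0 to 7.26 CPM with 4-OHT. The 10 immune genes summed to 8.24 to 38.2 CPM and to 3.12 to 21.3 CPM.

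Totals were 15013890 to 24573440 counts per library, and genes of the mitochondrial genome took 4.69 to 7.86% of counts with DMSO and 3.47 to 5.57% with 4-OHT. The 4-OHT library of line 4 stood apart. It had the highest total but reads in only 13402 genes, against 17530 to 20000 in the other 5 libraries with 4-OHT and 18243 to 21001 with DMSO. Of 1599 genes that averaged 1 to 3 CPM in the other spheroid libraries, 40.0% had no read in it, against 2.59 to 9.52% of 1578 to 1621 such genes in the other 4-OHT libraries. For several genes of low level the value without line 4 is therefore given as well. In bulk RNA, fewer cells of a type and less RNA per cell cannot be told apart.

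The level of Eif4g2 itself (ENSMUSG00000005610, chromosome 7, 111067750 to 111083030, minus strand, GRCm38) checks the deletion. In CPM after TMM scaling over the 22 spheroid libraries, the scale of all levels from here on, it ran from 706 (median 823) to 1202 with DMSO and from 84.9 (median 111) to 224 with 4-OHT. The treatments did not overlap, and line 6 kept the most Eif4g2 RNA with 4-OHT. The log2 fold change (log2 change from here on) was -2.88 ± 0.22 (SE, edgeR quasi-likelihood test with the line as a block, adjusted p 0.000146), 7.39-fold lower. In flox/+ lines the level went from 669 to 1163 with DMSO to 335 to 646 with 4-OHT, a log2 change of -0.80 ± 0.08 SE (edgeR adjusted p 0.0159). The counts span the whole gene, so reads from exons outside the floxed part remain in them.

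**Figure D1:**
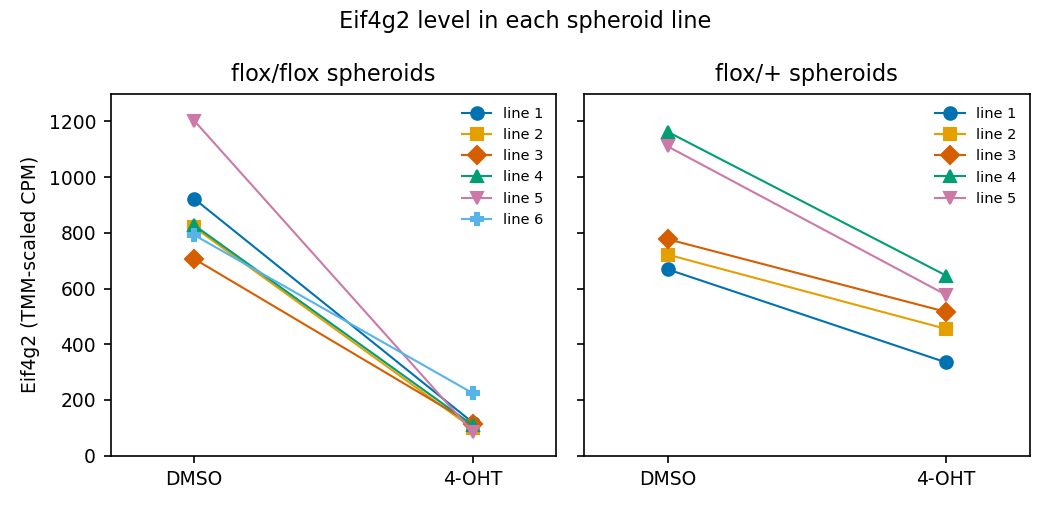
Eif4g2 level (TMM-scaled CPM, linear axis from 0) with DMSO and with 4-OHT in each spheroid line, with a line joining the 2 libraries of a culture; left flox/flox (6 lines), right flox/+ (5 lines). All 6 flox/flox lines end between 84.9 and 224 CPM and all 5 flox/+ lines between 335 and 646 CPM.

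Beyond the target, 4-OHT changed a large part of the transcriptome of flox/flox spheroids. Of 13430 tested genes, 4649 (34.6%) passed in edgeR at an adjusted p under 0.05, 2359 of them higher (17.6% of tested genes) and 2290 lower (17.1%). Without the line block the count was 1978 (14.7%; 7.72% higher, 7.01% lower), and 4106 genes passed without line 4. The direction was the same in all 6 lines for 4037 of the 4649 genes.

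The 10 largest rises were Synpo2l, Cav1, Plau, Dse, Wnt7a, Qk, Pmp22, Slc4a11, Map6 and Loxl4, with log2 fold changes from 3.85 down to 2.55. Synpo2l, an actin-associated protein, ran from 0.648 (median 1.25) to 4.34 CPM with DMSO and from 7.37 (median 22.8) to 44.6 CPM with 4-OHT, with no overlap (log2 change 3.85 ± 0.23 SE, edgeR adjusted p 6.3e-05). Cav1, the main structural protein of caveolae, ran from 3.94 (median 15.0) to 97.2 CPM with DMSO and from 50.6 (median 175) to 719 CPM with 4-OHT. The groups overlapped, line 2 being highest in both (97.2 and 719 CPM), and within lines the log2 ratio was 2.87 to 4.21 (log2 change 3.64 ± 0.18 SE, edgeR adjusted p 4.69e-05). Wnt7a is a secreted Wnt ligand, Qk an RNA-binding protein, Slc4a11 a membrane transporter and Loxl4 a matrix cross-linking enzyme. Pmp22 lost its edgeR call with no filter on low counts or in the S9488 lines alone.

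Among the 10 largest falls were Mptx1, Folr1, Meltf, Adh1, Hsd17b13, Npl, C4bp, Slc2a2 and Ugt2b5, with log2 fold changes from -9.00 to -5.84. C4bp, a complement-binding protein, ran from 17.6 (median 27.0) to 43.4 CPM with DMSO and from 0 (median 0.435) to 1.76 CPM with 4-OHT. Every treated library lay below every control library (log2 change -5.97 ± 0.86 SE, edgeR adjusted p 0.00267). It had no read with 4-OHT in lines 2, 4 and 5. The 10 genes with the largest falls had no read in the 4-OHT library of line 4. Without that line each kept its edgeR call, at -5.45 for C4bp and -5.39 for Ugt2b5, a steroid- and drug-conjugating enzyme. The Ugt2b5 call ended without line 5 or 6 or with no low-count filter. Folr1, Meltf and Npl were near 0 in some DMSO lines, so their fitted size depends on the lines in which they were expressed. Mptx1 and Ugt2b5 have close paralogs and are uncertain.

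The named lists showed 2 main patterns, differentiation and crypt genes lower and fetal, adhesion and growth factor genes higher. Counts per list stand against 17.6% higher and 17.1% lower over all tested genes, and some genes are on more than 1 list. Secretory cells of the intestine comprise enteroendocrine (hormone), goblet (mucus) and Paneth (antimicrobial) cells. Of 20 tested enteroendocrine genes 19 fell and 0 rose, with a median log2 fold change of -3.69, against -0.03 over all tested genes. Both regulators and hormones were among them: 12 of 12 regulators or granule proteins and 7 of 8 hormones. Chga, a granule protein, ran from 7.01 (median 30.3) to 69.7 CPM with DMSO and from 0.361 (median 5.26) to 26.6 CPM with 4-OHT. Within each of the 6 lines the treated culture was lower (log2 change -2.80 ± 0.41 SE, edgeR adjusted p 0.00194, and above 0.05 without the line block). Neurod1, an endocrine transcription factor, fell from 2.84 to 7.42 CPM to 0 to 1.65 CPM (-4.96 ± 0.81 SE, edgeR adjusted p 0.00245), and the hormone gene Tac1 fell by 4.85 on the log2 scale. Without line 4 these were -4.30 and -4.22, both still called. Of the 19 genes, 13 had no read in the 4-OHT library of line 4, and 19 members were called without that line.

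Of 15 goblet genes 10 fell and 0 rose (median -2.49). Fcgbp, a protein of the mucus layer, ran from 1496 (median 4494) to 13275 CPM with DMSO and from 51.1 (median 245) to 588 CPM with 4-OHT. The treatments did not overlap (log2 change -4.43 ± 0.93 SE, edgeR adjusted p 0.0127). Tff3, a trefoil peptide, was likewise separate, 414 to 1640 CPM against 21.6 to 207 CPM (-3.59 ± 0.66 SE, edgeR adjusted p 0.00795). Muc2, the main gel-forming mucin, was lower in 5 of 6 lines and did not pass (-3.76 ± 1.36 SE, edgeR adjusted p 0.0758). Of 13 tested Paneth genes 10 fell and 0 rose (median -3.31). Lyz1, lysozyme, ran from 2.28 (median 52.3) to 886 CPM with DMSO and from 0 (median 4.30) to 367 CPM with 4-OHT, lower in 6 of 6 lines (-3.17 ± 0.60 SE, edgeR adjusted p 0.00872). Without the line block 0 Paneth genes passed. The defensins Defa24 and Defa30 are near-identical to other family members and are uncertain. Tuft cell genes were too low to read, with 3 of 11 tested and 0 called.

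Notch signalling between neighbouring cells decides between absorptive and secretory fates. Of 17 tested genes on the Notch list 9 fell and 4 rose, against 17.1% and 17.6% of all tested genes. The list also holds 4 secretory regulators, which made up 4 of the 9 falls, so the pathway genes themselves were mixed. The falls were 5 without line 2, 6 without line 5 or 6 and 4 without the line block. Of 4 ligands 2 fell and 1 rose. The ligand Dll4 went from 4.98 to 8.88 CPM to 0 to 2.67 CPM (log2 change -3.48 ± 0.80 SE, edgeR adjusted p 0.0114), and the glycosyltransferase Lfng from 5.67 to 15.0 CPM to 0 to 3.19 CPM (-4.10 ± 0.76 SE, edgeR adjusted p 0.005). Neither gene overlapped between treatments, and without line 4, in which both had no read with 4-OHT, they were at -2.94 and -3.55 and still called. Dll1, the second ligand that fell, was at -3.23 and is named after its value was seen. All 4 secretory regulators on the list fell, among them Gfi1 (-3.61) and Atoh1 (-3.24), the transcription factor that starts the secretory programme. The ligand Jag2 (1.03 ± 0.12 SE, edgeR adjusted p 0.000543) and the receptor Notch3 (0.98 ± 0.22 SE, edgeR adjusted p 0.00935) rose, as did Maml1, a coactivator (0.69). Hes1, the best known Notch target, fell by 0.43 on the log2 scale.

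Crypt stem cell genes and general Wnt target genes differed. Of 11 stem cell genes 7 fell and 1 rose, and of 9 tested Wnt target or feedback genes 0 were called. Olfm4, a secreted stem cell marker, had 2346, 11.2, 3772, 19.9, 4.78 and 149 CPM with DMSO in lines 1 to 6 and 92.4, 0.133, 193, 0.892, 0.0502 and 5.73 CPM with 4-OHT. The lines differed widely before treatment, lines 1 and 3 being highest, and all 6 went down, with a within-line log2 ratio (CPM + 1) of -4.65 to -2.46 (log2 change -4.74 ± 0.22 SE, edgeR adjusted p 4.65e-05, and 0.172 without the line block). Lgr5, the R-spondin receptor of crypt stem cells, ran from 40.9 (median 103) to 394 CPM with DMSO and from 6.47 (median 16.4) to 89.1 CPM with 4-OHT. It too was lower in every line although the groups overlapped (-2.50 ± 0.20 SE, edgeR adjusted p 0.000139, and 0.0774 without the line block). Ascl2, a stem cell transcription factor, changed by -2.43 ± 0.67 (SE, edgeR adjusted p 0.0238), a call that ended without line 1, 2 or 3. Tnfrsf19 (-3.53) and Smoc2 (-2.60) fell, and Cdk6, a cell cycle kinase, rose by 0.74. Axin2, a standard readout of Wnt signalling, was at -0.10 ± 0.20 (SE, edgeR adjusted p 0.728), higher in 3 and lower in 3 lines.

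In genes of absorptive enterocytes line 3 differed from the other lines. Of 36 tested genes 21 fell and 0 rose, with a median log2 fold change of -3.71. Alpi, intestinal alkaline phosphatase of the brush border, had 311, 142, 132, 202, 1003 and 926 CPM with DMSO in lines 1 to 6 and 68.0, 1.13, 132, 0, 9.38 and 13.8 CPM with 4-OHT. Lines 1, 2, 4, 5 and 6 were lower with 4-OHT and line 3 was at the same level (-5.41 ± 1.66 SE, edgeR adjusted p 0.0467), and the call ended when any line but line 3 was left out. Over the whole list the median within-line log2 ratio was 0.30 in line 3 and -1.86, -3.14, -3.36, -5.15 and -3.50 in lines 1, 2, 4, 5 and 6. Without line 3, 34 enterocyte genes fell, and the number was 13, 9, 10, 11 and 8 without line 1, 2, 4, 5 and 6. With 4-OHT, Eif4g2 stood at 119, 97.6, 112, 109, 84.9 and 224 CPM in lines 1 to 6. Whether the remaining Eif4g2 bears on the enterocyte genes of line 3 was not tested. In line 3 the median log2 ratio was -1.51 for enteroendocrine, -0.88 for goblet and -0.81 for crypt stem and Wnt genes. Line 3 shares its name prefix with line 1, in which the fall was the smallest of the other 5. By role, 8 lipid absorption genes, 5 nutrient transporters and 4 brush border genes were among the 21. Slc2a2, a glucose transporter (-5.95 ± 1.33 SE, edgeR adjusted p 0.0156), and Fabp1, a fatty acid carrier (-5.66 ± 1.50 SE, edgeR adjusted p 0.029), showed the largest falls, the first losing its call without line 6 or with no low-count filter and the second without any 1 of lines 1, 2, 4, 5 and 6. Krt20, a keratin of mature villus cells, was at -1.15 ± 0.60 (SE, edgeR adjusted p 0.189).

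The promoter of Alpi is shown because it holds a binding motif of HNF4, a nuclear receptor of enterocytes. The 250 bases before the RefSeq start (chr1:87101607-87101856, minus strand, GRCm38.p6) are printed 5′ to 3′, with the motif CAAAGTCCA, searched on both strands, in capitals.
Alpi: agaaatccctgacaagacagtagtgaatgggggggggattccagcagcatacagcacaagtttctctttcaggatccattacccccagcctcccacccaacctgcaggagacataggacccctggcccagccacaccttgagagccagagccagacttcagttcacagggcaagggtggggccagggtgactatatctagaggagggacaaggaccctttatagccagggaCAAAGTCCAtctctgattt

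This motif was in 0.475% of 32851 RefSeq windows that reach from 250 bases before to 50 bases after a start. Among the enterocyte genes that fell, 16 of 21 had such a window, and 2 of their 18 windows, those of Alpi and Treh (trehalase), held it. A match describes the letters and no factor was measured there. The RNA of Hnf4a, which encodes the receptor, was at 0.01 on the log2 scale, and that of Hnf4g fell by 1.00, both named here after their values were seen.

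Of 23 genes on the list of intestinal transcription factors, which also holds the RNA-binding protein Igf2bp1, 8 fell and 2 rose (median -0.27). Over all tested genes 17.1% fell and 17.6% rose. The falls were 3 without line 2 or 4, 4 without line 5 or 6, 5 without line 1 and 2 without the line block. This count is therefore read as single genes only. Foxa3, expressed in goblet cells, ran from 22.5 (median 31.0) to 48.5 CPM with DMSO and from 2.31 (median 4.74) to 10.4 CPM with 4-OHT (log2 change -2.64 ± 0.25 SE, edgeR adjusted p 0.000276), and the groups did not overlap. Cdx2, which sets intestinal fate, was at -0.51 ± 0.16 (SE, edgeR adjusted p 0.0338), and its call ended without line 2, 4, 5 or 6. Creb3l3, a factor of lipid metabolism, and Prdm1, a repressor of the suckling-to-adult transition, changed by -4.62 and -2.94, and both calls ended when line 1, 2, 4 or 6 was left out, that of Creb3l3 also without line 5. The 2 rises were Igf2bp1, an RNA-binding protein of fetal tissue (0.77), and Foxa1 (0.36). Both calls ended without the line block and in the S9488 lines alone, that of Foxa1 also without lines 1 and 3. In the retinoid list, 8 of 18 tested genes fell and 4 rose, against the same shares of all tested genes. Without single lines other than line 3 the falls were 3 or 4 and the rises 2 or 3, and without the line block 2 fell and 2 rose. By role, 4 of 8 genes of retinol or retinal oxidation fell and 1 rose, 4 of 6 genes of binding, storage or carotenoid cleavage fell, and 3 of 4 receptor or degradation genes rose, among them Cyp26b1, whose call ended without line 3, 4, 5 or 6. Adh1, an alcohol dehydrogenase that oxidises retinol, went from 55.7 to 661 CPM to 0 to 14.3 CPM (-6.90 ± 1.16 SE, edgeR adjusted p 0.00561), and Rbp2, the enterocyte retinol-binding protein, changed by -4.82 ± 1.37 (SE, edgeR adjusted p 0.0365). Rbp2 and Rdh7 were higher in line 3, and their calls ended without line 1, 2, 4, 5 or 6. The receptor Rarg (1.22 ± 0.13 SE, edgeR adjusted p 0.000437) and the retinoic acid-making Aldh1a3 (1.93 ± 0.20 SE, edgeR adjusted p 0.00036) rose in 6 of 6 lines.

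**Figure D2:**
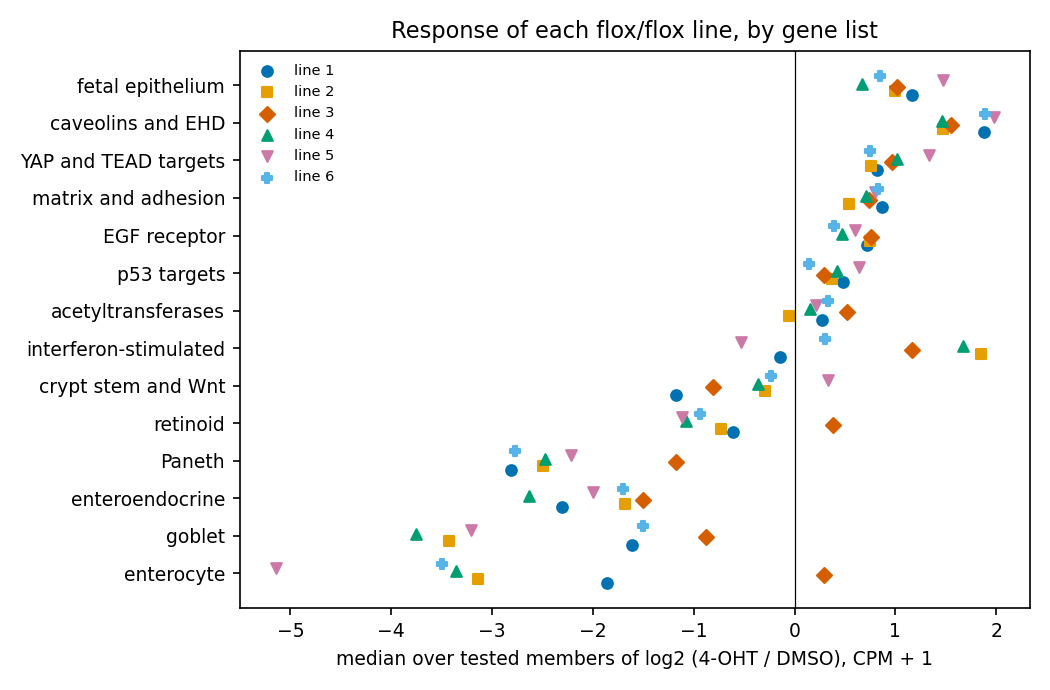
Response of each flox/flox line for 14 gene lists. Each point is the median, over the tested members of a list, of the within-line log2 ratio of 4-OHT over DMSO (CPM + 1); colours and symbols stand for lines 1 to 6. In the enterocyte list line 3 lies at 0.30 and the other lines between -5.15 and -1.86, and the interferon-stimulated list is high in lines 2, 3 and 4.

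Markers of fetal and regenerating epithelium, already expressed in these cultures, rose further. Of 21 genes 17 rose and 0 fell, with a median log2 fold change of 1.19. Gja1 ran from 40.7 (median 68.5) to 96.3 CPM with DMSO and from 73.1 (median 202) to 280 CPM with 4-OHT. All 6 lines went up, although the groups overlapped (log2 change 1.36 ± 0.11 SE, edgeR adjusted p 0.000169). Col4a1, a basement membrane collagen (1.72), and S100a6, a calcium-binding protein (1.55), rose in 6 of 6 lines. Ly6a (Sca-1), the most used marker of regenerating epithelium, was at 0.62 ± 0.20 (SE, edgeR adjusted p 0.0415), higher in 5 lines and lower in line 6, and its call ended without any 1 of lines 1 to 5. Clu (clusterin), which marks revival stem cells, was at 0.02 ± 0.24 (SE, edgeR adjusted p 0.968) and Spp1 at 0.35 ± 0.31 (edgeR adjusted p 0.425). Without the line block 8 of the 21 were called, and in the S9488 lines alone 14 (7.91% of all genes tested there were higher).

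Target genes of YAP and TEAD, the transcription factors of the Hippo pathway that respond to cell shape and injury, followed the same direction. Of 19 tested targets 11 rose and 2 fell (median 0.82). Ajuba, an adhesion-linked LIM protein that itself acts in the pathway, ran from 43.3 (median 65.5) to 145 CPM with DMSO and from 203 (median 294) to 451 CPM with 4-OHT. The treatments did not overlap (log2 change 2.05 ± 0.16 SE, edgeR adjusted p 0.000134). F3, tissue factor (1.65 ± 0.27 SE, edgeR adjusted p 0.00301), and Amotl2, a junction protein that restrains YAP (1.50 ± 0.19 SE, edgeR adjusted p 0.000839), also rose. Ctgf, higher in 5 of 6 lines, rose by 0.93 and Cyr61 by 0.77, both named here after their values were seen. Nuak2 (-1.30) and Gadd45a (-1.11) fell.

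The 250 bases before the RefSeq start of Cyr61 (now Ccn1; chr3:145649986-145650235, minus strand, GRCm38.p6) are shown because they hold the TEAD motif GGAATG, in capitals where it stands on the opposite strand.
Cyr61: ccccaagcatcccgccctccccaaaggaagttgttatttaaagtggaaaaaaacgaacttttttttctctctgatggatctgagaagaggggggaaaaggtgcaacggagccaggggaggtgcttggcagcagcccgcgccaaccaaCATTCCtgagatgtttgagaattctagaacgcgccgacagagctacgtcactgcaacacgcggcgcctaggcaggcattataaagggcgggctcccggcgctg

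GGAATG, searched on both strands, was in 14.7% of all 32851 windows. Of the YAP and TEAD targets that rose, 7 of 11 had a window, and 5 of their 8 windows held the motif (Ajuba, Amotl2, Cyr61, Lats2 and Ptpn14). Of the fetal markers that rose, 11 of 17 had a window, and 4 of their 15 windows held it.

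Adhesion, matrix and membrane genes rose with them. Caveolae are small pits of the plasma membrane made by caveolins and cavins and lined at the neck by EHD2. Of 8 tested caveolin, cavin and EHD genes 6 rose and 0 fell (median 1.74), in every fit that left out a line. Cavin2 (2.44 ± 0.24 SE, edgeR adjusted p 0.000313) and Ehd2 (2.16 ± 0.19 SE, edgeR adjusted p 0.000218) followed Cav1, and Ehd2 did not overlap between treatments, at 13.8 to 70.6 CPM against 87.2 to 239 CPM. Of 29 tested matrix and adhesion genes 20 rose and 1 fell (median 0.83), among them 11 of 14 laminins and integrins and 4 of 7 genes of plasminogen activation. Plau, the urokinase that activates plasminogen, ran from 1.54 (median 3.97) to 7.58 CPM with DMSO and from 9.51 (median 39.6) to 58.5 CPM with 4-OHT (log2 change 3.19 ± 0.19 SE, edgeR adjusted p 6.3e-05). Dse, an enzyme of dermatan sulfate synthesis, rose by 2.77 ± 0.21 (SE, edgeR adjusted p 0.000128). Neither gene overlapped between treatments. Adamts1, a matrix protease, was at 2.41 ± 0.62 (SE, edgeR adjusted p 0.0166), a call that ended without line 2, and Mmp15 fell by 0.59.

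In the EGF receptor list 10 of 17 tested genes rose and 1 fell. All 5 tested ligands rose. Hbegf ran from 19.7 (median 31.9) to 55.3 CPM with DMSO and from 63.1 (median 93.8) to 175 CPM with 4-OHT (log2 change 1.50 ± 0.10 SE, edgeR adjusted p 6.75e-05), and Ereg, epiregulin, from 19.0 (median 29.6) to 53.6 CPM and from 54.3 (median 78.9) to 133 CPM (1.34 ± 0.11 SE, edgeR adjusted p 0.00017). Neither ligand overlapped between treatments, in medium that already contained EGF. Dusp6, a feedback phosphatase of the ERK pathway, rose by 1.23 ± 0.08 (SE, edgeR adjusted p 6.64e-05), and Lrig1, which limits the receptor, fell by 0.63. Of 8 tested keratins, Krt7 (1.26) and Krt23 (1.04), of simple epithelia, rose and Krt15 (-2.13) fell. Of 9 claudins, the tight junction proteins, 3 rose and 2 fell, or 2 and 5 in the fit without lines 1 and 3. Cldn8 (-3.32) and Cldn2 (-1.19) fell, and Cldn4 (0.61) and Cldn12 (0.52) were among those that rose. Of 15 tested BMP pathway genes 4 rose and 2 fell. Over all tested genes 17.6% rose and 17.1% fell, so the keratin, claudin and BMP counts are read as single genes only. Id1, a target, fell by 1.44, while Id2 (1.01) and the receptors Bmpr2 (0.95) and Acvr1 (0.73) rose. The Id1 call ended without line 2.

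**Figure D3:**
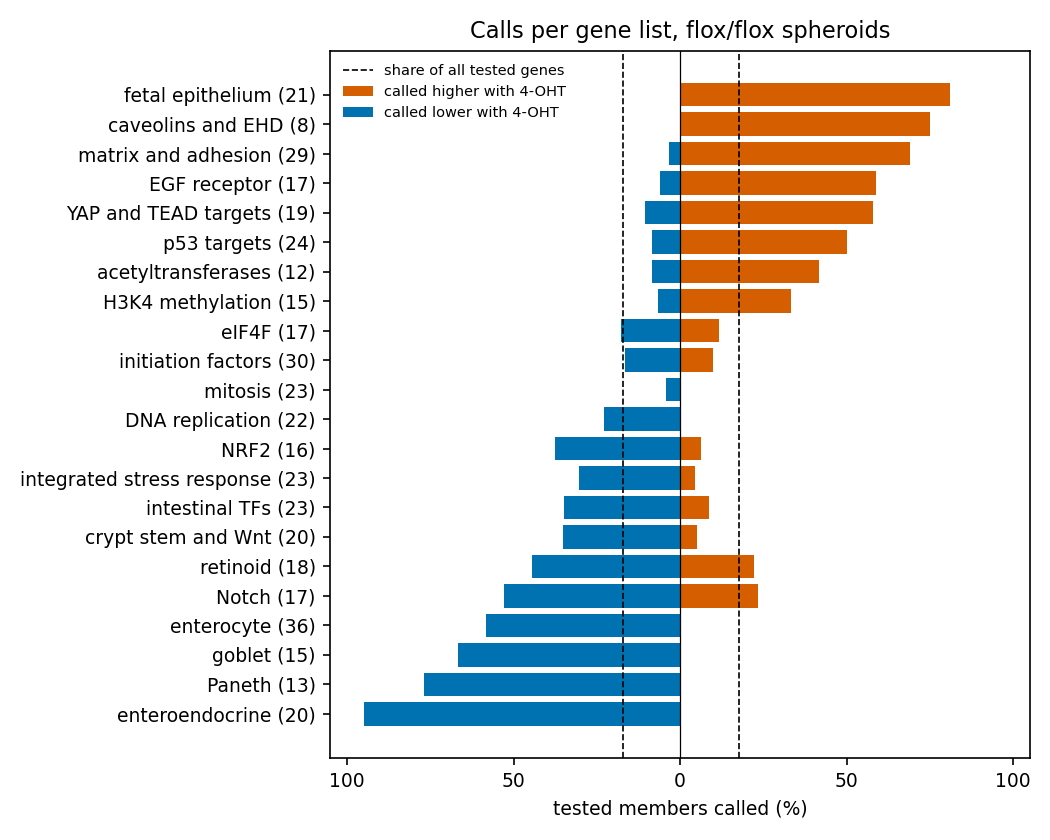
Share of tested members of 22 gene lists called higher (right, orange) or lower (left, blue) with 4-OHT in flox/flox spheroids, with the number tested in parentheses. Dashed lines mark the shares over all tested genes, 17.6% higher and 17.1% lower. Enteroendocrine genes lie farthest to the left (19 of 20) and fetal epithelium genes farthest to the right (17 of 21).

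**Figure D4:**
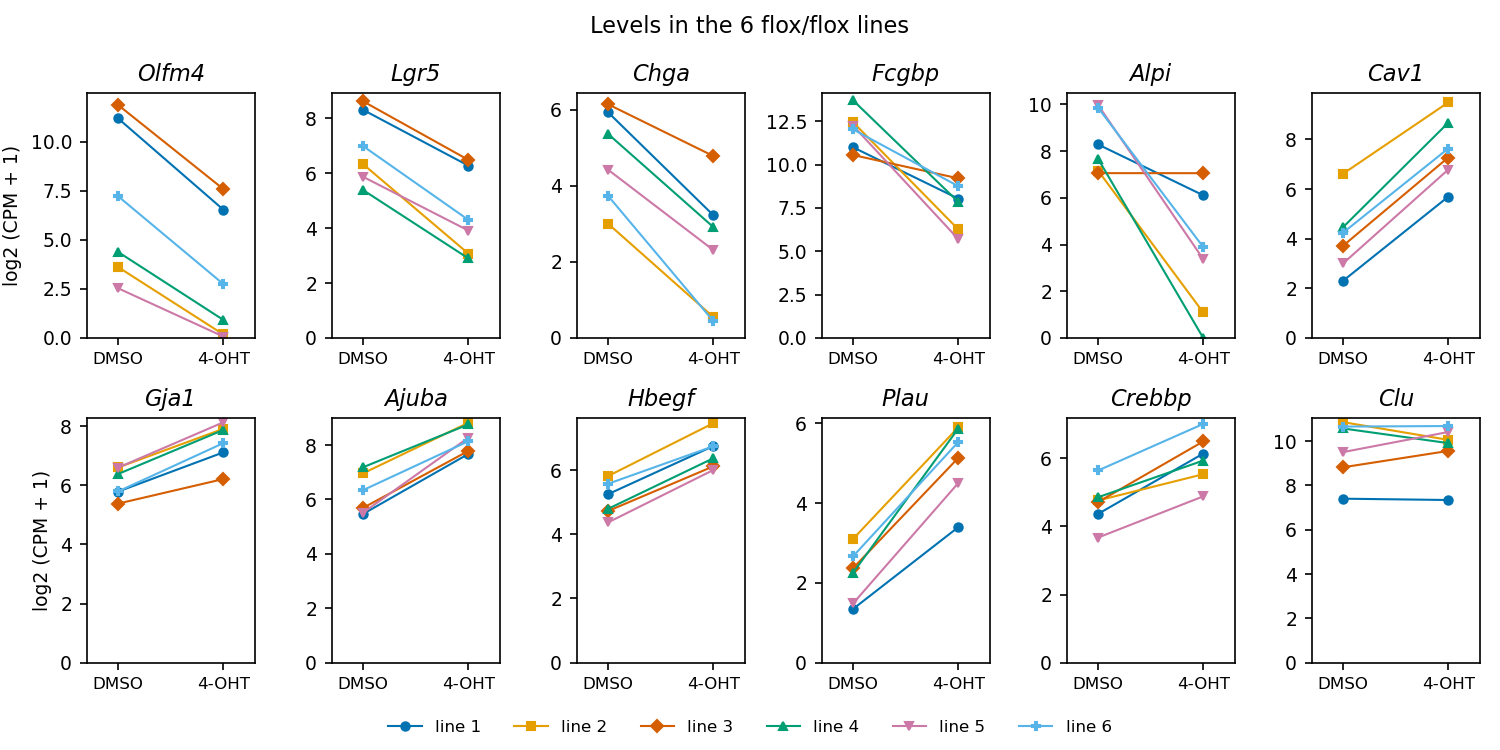
Levels of 12 genes, as log2 of TMM-scaled CPM plus 1, with DMSO and 4-OHT in the 6 flox/flox lines; a line joins the 2 libraries of a culture. Olfm4 and Lgr5 start at very different levels and are lower in every line, Alpi stays level in line 3, Cav1 to Crebbp rise in all 6 lines, and Clu moves in both directions.

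p300 (Ep300) and CBP (Crebbp) acetylate histones at enhancers, and the KMT2 enzymes methylate histone H3 at lysine 4. Of 12 acetyltransferase genes 5 rose and 1 fell, against 17.6% and 17.1% of all tested genes. Crebbp ran from 11.7 (median 25.7) to 48.8 CPM with DMSO and from 28.4 (median 64.6) to 127 CPM with 4-OHT (log2 change 1.36 ± 0.15 SE, edgeR adjusted p 0.000437), and Ep300 from 55.6 (median 89.4) to 140 CPM and from 115 (median 214) to 357 CPM (1.24 ± 0.10 SE, edgeR adjusted p 0.000146). Each gene was higher in 6 of 6 lines, although the groups overlapped. Ncoa3 rose by 0.93 and Kat8 fell by 0.51. Of 15 tested genes of H3K4 methylation 5 rose and 1 fell, against the same shares, or 1 and 0 in the S9488 lines alone. Kmt2d was at 0.67 ± 0.15 (SE, edgeR adjusted p 0.0088) and Setd1a at 0.78 ± 0.12 (SE, edgeR adjusted p 0.00195). Without the line block 2 acetyltransferase genes, Crebbp and Ep300, were called higher and 0 H3K4 genes were called.

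Changes ran with gene length. In the length quintile of tested genes with the shortest annotated length (up to 2108 bases) 5.66% rose and 20.2% fell, and in the quintile with the longest (7237 bases or more) 31.4% rose and 12.1% fell. The median log2 fold change went from -0.19 to 0.15 from the shortest to the longest quintile, and in each of the 6 lines the longest lay above the shortest. In flox/+ lines the medians were 0.03 and 0.02. Crebbp, Ep300, Ncoa3 and Kmt2d are in the longest quintile, as are 6 of the 12 acetyltransferase and 9 of the 15 H3K4 genes, while none of the caveolin genes and 2 of the 21 fetal genes are. The part of length in the chromatin gene results was not tested.

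Of 17 tested eIF4F genes and regulators 2 rose and 3 fell, and of 30 other initiation factors 3 rose and 5 fell, against 17.6% and 17.1% of all tested genes. Pdcd4, an inhibitor of the helicase eIF4A, ran from 93.5 (median 123) to 142 CPM with DMSO and from 37.4 (median 56.1) to 65.5 CPM with 4-OHT, with no overlap (log2 change -1.14 ± 0.09 SE, edgeR adjusted p 0.000136). Eif4g1, the main scaffold of the family, was at 0.06 ± 0.08 (SE, edgeR adjusted p 0.605), whereas Eif4g3 rose by 0.69 ± 0.15 (SE, edgeR adjusted p 0.00868) and the helicase Eif4a2 by 0.69 ± 0.10 (edgeR adjusted p 0.00141). Among the other factors, Eif1 (0.82) and Eif5 (0.51), which govern start codon selection, rose, as did Eif2b5 (0.25), whose call ended without any 1 line. A further 5 fell, or 2 without line 2 and 3 without line 1, 3, 4 or 6, led by Eif3m (-0.46), Mcts1 (-0.44) and Eif3e (-0.41).

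Among stress genes, of 24 p53 target genes 12 rose and 2 fell, and Tnfrsf10b, a death receptor, rose from 30.5 to 72.1 CPM to 80.2 to 191 CPM (log2 change 1.47 ± 0.11 SE, edgeR adjusted p 0.000114), without overlap. Cdkn1a (p21), which halts the cell cycle, was at -0.08 ± 0.10 (SE, edgeR adjusted p 0.596). Of 23 tested genes of the integrated stress response 7 fell and 1 rose, with Cth, of cysteine synthesis, at -1.96 ± 0.24 (SE, edgeR adjusted p 0.000859). Of 16 genes of the unfolded protein response 3 fell and 1 rose (median -0.14), a share of falls near that over all genes. Herpud1 ran from 99.5 to 124 CPM with DMSO and from 38.6 to 46.2 CPM with 4-OHT (-1.39 ± 0.09 SE, edgeR adjusted p 7.41e-05). Xbp1 fell by 0.70, while Hyou1 rose by 0.40, a call that ended without line 1, 2 or 4. Gstm1 (-2.52) and Gsta3 (-2.07), glutathione transferases, did not overlap between treatments, and in the NRF2 list 6 of 16 fell and 1 rose, or 3 and 0 without line 2 or without the line block. Fads1 (-1.64) and Fads2 (-0.99), the desaturases of polyunsaturated fatty acids, fell in 6 of 6 lines. Of the complement genes Cfi (-4.56) fell and Cd55, a complement inhibitor, rose (0.85).

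Proliferation genes split the lines. DNA replication genes were lower with 4-OHT in lines 1, 2, 3 and 4 (22, 22, 22 and 21 of 22 genes, median within-line log2 ratio -0.71, -0.62, -0.72 and -0.71). In lines 5 and 6, 18 and 16 of the 22 were higher (medians 0.54 and 0.13). Mitosis genes were lower in lines 1, 2 and 3 (19, 17 and 19 of 23) and higher in lines 4, 5 and 6 (19, 22 and 21 of 23). Over the 6 lines, of 23 mitosis genes 1 fell, Birc5 (-0.57, a call that ended without line 1, 2 or 3). Of 22 replication genes 5 fell, led by Rfc4 (-1.06) and Tyms (-0.83), where 17.1% of all tested genes fell. Without line 5, 13 replication genes fell, and without line 1, 2, 3 or 4 the number was 3. Mki67 was at 0.10 ± 0.26 (SE, edgeR adjusted p 0.803). Interferon-stimulated genes also differed between lines: their median within-line log2 ratio was 1.85, 1.17 and 1.67 in lines 2, 3 and 4 and -0.14, -0.53 and 0.31 in lines 1, 5 and 6. Irf9, a subunit of the interferon-activated transcription complex, had 17.4, 13.6 and 14.2 CPM with DMSO in lines 2, 3 and 4 and 59.3, 38.2 and 57.4 CPM with 4-OHT. Of 13 tested members 4 rose, and leaving out single lines gave 1 to 4. The Irf9 call ended without line 2, 3, 4 or 6.

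Of the 13 protein genes of the mitochondrial genome 7 fell. The list rests on single lines, since 1 gene fell without line 2 and 12 without line 3. mt-Atp8 had 83.1, 268, 167, 253, 139 and 2.25 CPM with DMSO in lines 1 to 6 and 32.8, 20.4, 14.1, 7.44, 3.61 and 2.48 CPM with 4-OHT. Line 6 was low in both treatments, and the other 5 lines were lower with 4-OHT (log2 change -3.33 ± 0.84 SE, edgeR adjusted p 0.0241, a call that ended without line 2, 4 or 5). mt-Atp6, which overlaps mt-Atp8 on the same strand, was at -2.06 ± 0.52 (SE, edgeR adjusted p 0.0242), and its call ended without line 1, 2 or 5. Libraries were made from poly(A) RNA, and how evenly mitochondrial RNA was captured was not tested.

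The lines also differed before deletion. With DMSO the genes of largest spread were Olfm4, Meltf, Defa30, Naaladl1, Defa24 and Mamdc4. The Paneth list summed to 2613 and 5342 CPM in lines 1 and 3 and to 250 to 688 CPM in the other lines, and the stem cell and Wnt list to 5844 and 8280 CPM against 1652 to 2649 CPM. The fetal list ran the other way, with 2341 and 2765 CPM in lines 1 and 3 and 4148 to 7758 CPM elsewhere. With 4-OHT the fetal list was at 6064 and 7429 CPM in lines 1 and 3. Mamdc4, an endocytosis receptor of the fetal and suckling gut, had 2119 CPM in line 5 and 5.49 CPM in line 4 with DMSO, and 1.10 and 1.16 CPM with 4-OHT. Without lines 1 and 3, an alternative chosen after the data were seen, 4031 genes (29.7%) were called, including 35 enterocyte, 15 goblet, 17 enteroendocrine and 10 Paneth genes lower and 15 fetal genes higher. Without those 2 lines, which carried most of the Paneth RNA, the Ascl2 and Ly6a calls ended.

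Flox/+ lines, in which 4-OHT can remove 1 copy, show the response to the agent with 1 copy left. Of 13933 tested genes 1 (0.00718%), Eif4g2 itself, passed in edgeR, and 1003 had an unadjusted p under 0.05. The count was 0 without flox/+ line 1 or 4, or without the line block, 2 without line 3 and 5 without line 5, and DESeq2's Wald test gave 142. The median log2 fold change of the enterocyte list was -0.73 in flox/+ lines and that of the fetal list 0.36, with 0 members called. Mesenchymal genes reached higher levels in flox/+ than in flox/flox libraries, with ranges that overlapped. The 12 genes summed to 8.06 to 236 CPM with DMSO and 4.15 to 179 CPM with 4-OHT in flox/+ lines, against 1.78 to 8.61 and 0 to 7.26 CPM in flox/flox lines, and Col1a1 reached 108 and 77.2 CPM in flox/+ lines. Its part in the flox/+ and interaction results was not tested. The difference of the 4-OHT effect between genotypes was tested as an interaction over all 22 spheroid libraries. It passed for 2758 of 15032 genes (18.3%) in edgeR, 1236 higher (8.22%) and 1522 lower (10.1%) in flox/flox lines, and for 243 without the line block. Of the 4649 genes called in flox/flox lines, 2505 (53.9%) were among them, which is 90.8% of the 2758. The 2 tests share the flox/flox libraries, so this overlap is only a description.

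By list, the interaction passed for 18 of 22 tested enteroendocrine, 12 of 16 Paneth, 8 of 15 goblet and 9 of 36 enterocyte genes. All of these were more negative in flox/flox lines, as were 10.1% of all tested genes. The interaction was more positive for 10 of 21 fetal and 10 of 19 YAP and TEAD genes, against 8.22% of all tested genes. The same held for 15 of 30 matrix and adhesion and 6 of 8 caveolin or EHD genes. It was more negative for Nuak2, Gadd45a and the matrix protease Mmp15. Of the 24 tested p53 targets it passed for 5 higher and 2 lower. The list's median log2 fold change was 0.36 in flox/flox and 0.26 in flox/+ lines. The interaction passed for 0 of 15 interferon-stimulated and 0 of 13 mitochondrial genome genes. Lgr5 (interaction -2.18 ± 0.24 SE), Olfm4 (-4.44 ± 0.40 SE), Cav1 (3.05 ± 0.26 SE) and Ajuba (1.78 ± 0.20 SE) were among the genes that passed, with edgeR adjusted p of 0.000123, 7.24e-05, 2.83e-05 and 0.00013. Fabp1 and Alpi did not pass (edgeR adjusted p 0.0731 and 0.118), nor did Ly6a (0.656), Clu (0.807), mt-Atp8 (0.0679) or Kmt2d (0.208). The S9484 prefix occurs only among flox/flox and S9612 only among flox/+ lines, so for these lines genotype and prefix cannot be told apart.

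**Figure D5:**
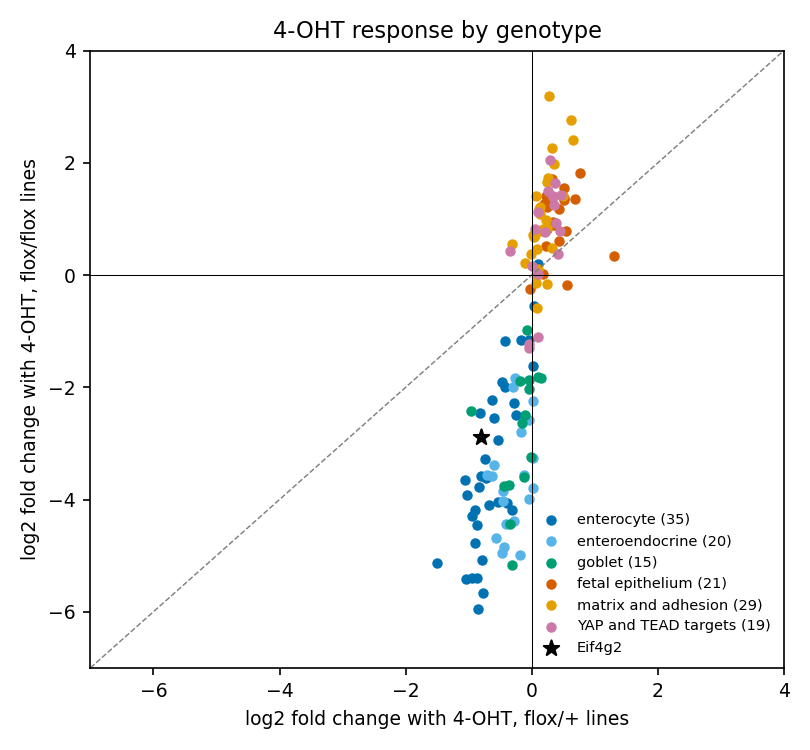
Log2 fold change with 4-OHT in flox/+ lines (x) against flox/flox lines (y) for the tested members of 6 gene lists (number in the legend) and Eif4g2 (star); the dashed line marks equal change. Enterocyte, enteroendocrine and goblet genes lie mostly far below the line and fetal, matrix and YAP genes mostly above it. The median flox/+ value is -0.73 for enterocyte, -0.29 for enteroendocrine and -0.11 for goblet genes. It is 0.36 for fetal, 0.26 for YAP and TEAD and 0.13 for matrix genes.

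In adult flox/flox organoids the same treatment gave effects that could rarely be told from those in spheroids. The interaction of treatment with culture passed for 12 of 16025 genes (0.0749%) in edgeR, 5 more positive (0.0312%) and 7 more negative (0.0437%) in spheroids. An unadjusted p under 0.05 was reached by 1154 genes, and DESeq2's Wald test gave 188. The count was 0 without flox/flox line 1, without any 1 of the 3 organoid replicates or without the line block, and from 1 (without line 6) to 22 (without line 3) without the others. With 3 organoid pairs in a separate table, a small count does not show that the cultures responded alike, and culture and table cannot be told apart. The median interaction was -2.38 for enterocyte, -1.73 for enteroendocrine, -1.38 for goblet and -0.99 for caveolin and EHD genes, with 0 members called. It was -0.01 for crypt stem and Wnt and 0.12 for matrix and adhesion genes, against -0.08 over all tested genes. The effect was more positive in spheroids for Upk3b, a uroplakin (2.32 ± 0.31 SE, edgeR adjusted p 0.0324), L1cam, a cell adhesion molecule (2.00), Tiam1, an activator of Rac (1.90), Fam117b (1.20) and Cyp26b1, which degrades retinoic acid (2.08). Among the 7 genes for which it was more negative were Akp3, an intestinal alkaline phosphatase (-5.21), Fam20a (-4.56), Ccl20, a chemokine (-4.42), Hspa1b, a heat shock protein (-1.61), and Cul7 (-1.28). In spheroids L1cam rose from 3.04 to 11.6 CPM to 12.1 to 39.9 CPM and Ccl20 fell from 20.3 to 195 CPM to 3.75 to 15.3 CPM, both without overlap, while Upk3b was at -0.14 ± 0.18 (SE, edgeR adjusted p 0.571). Hspa1b has a near-identical neighbour and is uncertain.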

How the data were processed

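Libraries were made from poly(A) RNA with a strand-marking protocol, per the labels. The authors deposited raw read counts per gene, 1 column per library, whole numbers with no normalization. The submitters' processing notes name HISAT2 2.0.5 and the builds GRCm38 and mm10. How reads were counted, and whether by strand, is not given in the sources used here, so overlapping genes and close paralogs are uncertain. Coordinates are those of the count table, which match GENCODE vM21 for 54409 of 54532 identifiers (98.8% with the same start, 98.7% with the same end).

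Each comparison was fitted in edgeR 4.0.16 (R 4.3.3) by robust quasi-likelihood F-tests with the line as a block, after TMM scaling and filterByExpr on the groups, with Benjamini-Hochberg adjustment over all tested genes, called at 0.05. The flox/flox and the flox/+ libraries were fitted separately, and the genotype and culture interactions on the 22 spheroid libraries and on the 12 flox/flox spheroid and 6 organoid libraries. SE is the log2 change over the square root of F. Levels are TMM-scaled CPM, and within-line ratios are log2 values after adding 1 CPM. Line names in the labels pair the libraries. Deviations of log2 CPM from the mean of each treatment were correlated between the 2 libraries of a line. The correlations were 0.385 to 0.783 in flox/flox and 0.626 to 0.857 in flox/+ spheroids. Each line is a separate culture per its name, and with the line as a block p-values measure how the within-line response varied among lines. Lines with a shared prefix may not be independent, which these p-values do not take into account. No 2 libraries of a group agreed within sampling noise (smallest chi-square per degree of freedom 38.7 in the flox/flox spheroids). In simulated data for the flox/flox comparison (13430 genes), 100 genes were changed by a log2 of 1 and 100 by 2. Of these, 60% and 80% were called, with 7.895% of calls false. For the interaction with culture these shares were 20% and 62%, with 6.818% of calls false. Far fewer genes were changed there than the 4649 called in the real flox/flox data, so the shares need not carry over.

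The 40 lists hold 679 genes. Some genes are on more than 1 list, such as Foxa3 and Atoh1 (also goblet genes) and Ereg and Krt7 (also fetal genes), so counts of different lists are not separate evidence. The members and lists were chosen with earlier results of these data known. Named genes are Eif4g2, the 10 largest rises and falls with mean log2 CPM no lower than 3 and 1 direction in all 6 lines (no predicted genes, clones or pseudogenes), up to 3 called genes per list and direction, fixed markers, up to 6 genes per direction against organoids, and the 6 genes of largest spread over DMSO lines. Atoh1, Hes1, Hnf4a, Hnf4g, Treh, Ctgf, Cyr61, Lats2 and Ptpn14 were added after their values were seen. Alternatives were DESeq2 1.42.0 (size factors, Wald test), no low-count filter, no line block, all 22 spheroid libraries in the fit, each line left out and, chosen after the data were seen, the S9488 lines alone and the lines without S9484. Some results that these rules name are not reported here. Promoter sequences come from RefSeq (GRCm38.p6).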

Additional observations from a re-analysis of the deposited data

Results flagged for a closer look

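In 14 of 170 named genes tested, 1 of the 6 flox/flox lines lay far from the others in its within-line log2 ratio of 4-OHT over DMSO. By chance about 1 in 20 groups would have such a sample. Line 5 was far from the rest for Mamdc4 (-9.98, the others -4.06 to -1.59) and Naaladl1, a brush border peptidase (-5.84, the others -1.13 to 0.96). Both genes were among those that differed most between DMSO lines. Line 5 also stood apart for the deacetylases Hdac5 (-1.07, the others -0.44 to -0.14) and Hdac7 (1.81, the others 0.69 to 0.94) and for G6pdx, of NADPH supply (0.72, the others 0.14 to 0.35).

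Line 2 lay apart for the proliferation marker Mki67 (-1.33, the others -0.11 to 0.56), for Spp1 (-1.27, the others 0.30 to 0.88) and for Rarg (1.81, the others 0.97 to 1.24). Line 3 lay apart for Ugt2b5 (-0.15, the others -6.45 to -4.22), Cd55 (2.00, the others 0.48 to 1.05) and Eif5 (0.73, the others 0.44 to 0.51). Line 1 had the smallest fall of Fads1 (-1.32, the others -1.73 to -1.61). Line 4 had the largest falls of the complement genes C4bp (-5.47, the others -4.25 to -3.71) and Cfi (-4.47, the others -3.32 to -3.02). The 4-OHT library of line 4 also had reads in the fewest genes (13402) and the highest share of low genes without a read (40.0%). Its part in these 2 ratios was not tested.

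Over whole lists, line 3 stood apart for Paneth genes (median -1.18), retinoid genes (0.38) and genes of the integrated stress response (-0.76). The response to 4-OHT differed by interaction tests in edgeR for 2758 genes between flox/flox and flox/+ spheroids and for 12 genes between flox/flox spheroids and organoids.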

How the results depend on the processing

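The count of genes called in flox/flox spheroids (4649) was 2500 in the S9488 lines alone, 1978 without the line block and 2864 without it in a fit of all 22 libraries, whereas the replicate block with all 22 libraries gave 6425. The other counts were within 1.5 times, 3566 to 4638 when lines were left out. The flox/+ count (1) was 142 with DESeq2's Wald test, 430 with no low-count filter, 0 without the line block and 0 to 5 without single lines. The genotype interaction (2758) gave 243 genes without the block, and the interaction with culture (12) gave 188 with the Wald test, 20 with no filter, 0 without the block and 0 to 22 without single libraries. Of the 159 named genes called in flox/flox spheroids, 90 lost the call under at least 1 alternative and none changed sign. A gene that failed the low-count filter in an alternative fit was not counted as lost there. Folr1 and Meltf, for example, were not tested without line 1, in the S9488 lines alone or without the S9484 lines.

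Without the line block fewer list members were called: 11 enteroendocrine, 7 enterocyte and 2 crypt stem or Wnt genes lower, and 13 matrix, 5 p53 target and 4 EGF receptor list genes higher. Signs changed for 6 genes that were not called. Clu (0.02) was at -0.01 with the Wald test, with DESeq2 size factors (-0.013) and with no filter (-0.0095), -0.11 without the block, -0.092 without it in all 22 libraries, -0.22 in the S9488 lines, -0.16 without the S9484 lines and -0.17 to 0.19 without single lines. Axin2 was at 0.33 in the S9488 lines, 0.23 without the S9484 lines and -0.26 to 0.061 without single lines. Mki67 was at -0.32, -0.15 and -0.0054 to 0.38 in the same order. Upk3b was at 0.18 in the S9488 lines, 0.0063 without the S9484 lines, 0.12 without the block and 0.13 without it in all 22 libraries. Spp1 was at -0.16 in the S9488 lines, and Krt20 (-1.15) at 0.0403 without the block and 0.0397 without it in all 22 libraries. The cause of these changes was not tested. Residual degrees of freedom (5) and the 4-OHT library of line 4 limit what can be read of low genes.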
